A study of Mus musculus with 6 samples.

Results

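Notch genes were followed in libraries of cells sorted as PDPN+PDGFRα+ from MO5 melanomas, tumors that grow from B16 melanoma cells carrying ovalbumin. The genes were chosen by name, as 4 receptors (Notch1, Notch2, Notch3 and Notch4), 3 ligands (Jag1, Dll1 and Dll4) and 3 target genes (Hes1, Hey1 and Heyl), and all 10 were found among the 53801 genes of the count table. The DTR group held 3 libraries from DTR+ mice, which carry the diphtheria toxin receptor on a bacterial artificial chromosome with the tTA transactivator under the Adam12 promoter, so that diphtheria toxin kills ADAM12+ cells. The Ctrl group held 3 libraries from DTR- littermates without the transgene. Mice of both groups were adults on the C57Bl/6 background, bore MO5 tumors and received diphtheria toxin, so the groups differed in the transgene and not in the toxin. The toxin acts on cells that express the receptor, and the labels give neither the treatment days nor the number of animals behind a library. The sort kept only cells negative for CD45, a marker of blood cells, and for CD31, a marker of endothelium.

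Notch receptors are single-pass membrane proteins that are activated by ligands of the Jagged and Delta-like families on a neighboring cell. Ligand binding opens the receptor to cleavage by ADAM10 or ADAM17 and then by γ-secretase, which frees the intracellular domain. This domain enters the nucleus, joins the DNA-binding protein RBPJ and Mastermind proteins, and switches on genes of the Hes and Hey families, which encode transcriptional repressors. NOTCH3 and HEYL are typical of pericytes and smooth muscle cells, NOTCH4 and DLL4 of endothelial cells, and NOTCH2 and JAG1 are made by many cell types.

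Libraries held between 22339635 and 34271929 reads on genes. Levels are given as CPM, the reads of a gene scaled to the size of its library with edgeR's TMM factors. A count of 3 reads, the smallest taken here as detected, equals between 0.0873 and 0.132 CPM, which covers counting error only. Adam12 was counted at 175 to 216 CPM in Ctrl and at 112 to 165 CPM in DTR, so it was lower in each DTR library but present in all. For Adam12 the log2 fold change was -0.42 (SE 0.154), with an edgeR adjusted p of 0.602. Transcripts of the sorting markers overlapped between groups, with 42.7 to 132 CPM of Pdgfra and 46.0 to 99.2 CPM of Pdpn over the 6 libraries. Besides 10 fibroblast markers, with a summed 5207 to 14388 CPM, the libraries held 8 melanoma markers at a summed 15251 to 18984 CPM. The sum of 8 macrophage markers was 112 to 183 CPM. Levels of the members are therefore those of the sorted fraction, and the part of melanoma cells and macrophages in them was not tested. A lower value in these bulk libraries cannot be told apart as fewer cells of a type or less RNA per cell.

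Sequences upstream of RefSeq transcript starts of the 4 receptor genes are shown because the make-up of the receptors is described in most depth. Each run covers the 250 bases upstream of a RefSeq transcript start on GRCm38.p6, written 5′ to 3′ along the gene, with CG dinucleotides in capitals. RefSeq starts differ from the outer ends of the GENCODE genes given with the values: the Notch1 window lies wholly inside the GENCODE gene, downstream of its outermost start, and the Notch2 and Notch4 windows reach a short way past theirs. Promoters rich in CG dinucleotides are typical of genes used in many cell types.
Notch1 (chr2:26503823-26504072, minus strand): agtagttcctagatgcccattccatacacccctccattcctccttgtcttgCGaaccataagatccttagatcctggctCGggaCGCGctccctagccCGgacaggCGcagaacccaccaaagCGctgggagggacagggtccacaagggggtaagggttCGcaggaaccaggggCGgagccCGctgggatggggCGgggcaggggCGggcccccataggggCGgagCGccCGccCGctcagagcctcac
Notch2 (chr3:98013288-98013537, plus strand): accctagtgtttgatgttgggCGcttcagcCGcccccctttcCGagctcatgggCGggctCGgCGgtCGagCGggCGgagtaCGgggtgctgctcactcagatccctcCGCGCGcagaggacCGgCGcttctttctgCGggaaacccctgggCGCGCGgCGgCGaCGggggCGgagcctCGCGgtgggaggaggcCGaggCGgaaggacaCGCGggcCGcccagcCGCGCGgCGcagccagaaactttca
Notch3 (chr17:32166891-32167140, minus strand): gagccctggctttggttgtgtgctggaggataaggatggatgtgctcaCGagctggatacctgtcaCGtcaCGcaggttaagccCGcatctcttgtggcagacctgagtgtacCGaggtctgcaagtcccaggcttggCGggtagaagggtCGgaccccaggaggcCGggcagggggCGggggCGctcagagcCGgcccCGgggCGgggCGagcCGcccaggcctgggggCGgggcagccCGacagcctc
Notch4 (chr17:34564045-34564294, plus strand): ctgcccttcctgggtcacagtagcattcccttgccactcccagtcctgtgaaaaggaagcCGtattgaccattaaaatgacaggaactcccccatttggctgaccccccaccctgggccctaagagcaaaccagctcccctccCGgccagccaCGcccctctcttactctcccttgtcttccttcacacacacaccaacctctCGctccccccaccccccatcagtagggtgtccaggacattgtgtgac
The Notch2 window held 34 CG dinucleotides, the Notch3 window 17, the Notch1 window 16 and the Notch4 window 4, against a median of 6 over 32851 such windows of mouse genes. Notch2, the most abundant receptor transcript, had the most CG dinucleotides of the 4, and Notch4, the least abundant, had the fewest. Notch1 had fewer than Notch3 although its mean level was higher, and a relation to transcript level was not tested. RefSeq windows were matched for 7 of the 10 members, and Hes1, Hey1 and Heyl had none. None of their 8 windows held TGGGAA on either strand, the core word bound by RBPJ, which stood in 21.6% of all windows. The word CACGTG, which reads the same on both strands and is bound by Hey-type repressors, was also in 0 of the 8, against 6.02% of all windows.

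To order the members by level, CPM were divided by exon length in kilobases (RPKM). Notch2 led with a mean of 6.63 RPKM over the 6 libraries, followed by Jag1 with 4.27 and Hes1 with 3.80 RPKM. Notch2 was above Jag1 in 6 of 6 libraries, whereas Jag1 was above Hes1 in 3 of 6. Each led its own role among the members, although Hes6, a Hes-family gene outside them, was higher than Hes1 in each library, with a mean of 7.60 RPKM. A wide gap followed, as the lowest Hes1 value, 1.85 RPKM, was above the highest Notch1 value, 0.941 RPKM. Notch1 had a mean of 0.788 RPKM, Notch3 of 0.579 and Heyl of 0.253 RPKM. Notch4 (0.127), Dll4 (0.103), Dll1 (0.0810) and Hey1 (0.0276 RPKM) came last. The ranges of neighboring members in this order overlapped over the 6 libraries for every pair except Hes1 and Notch1. Among 21967 protein-coding genes ranked by mean RPKM, Notch2 stood at 5298, Jag1 at 6954, Hes1 at 7326 and Hey1 at 14824.

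Of the 10 members, 8 had enough reads for edgeR's expression filter, and Dll1 and Hey1 did not. In DTR over Ctrl, edgeR's quasi-likelihood fit left 0 of the 8 with a Benjamini-Hochberg adjusted p under 0.05, and 0% of all 15133 genes tested. An unadjusted p under 0.05 was also reached by 0 of the 8, against 7.92% of all genes tested. DESeq2's Wald test gave 0 of 10 members under 0.05 with or without adjustment, against 0.151% and 4.89% of all genes. Log2 fold changes were below 0 for 5 members and above 0 for 3, against 50.4% of all tested genes below 0. Their median was -0.05, and that of all tested genes was -0.0029. The values of Ctrl and DTR did not overlap for 1 of the 8, Notch1, which was lower in DTR, against 14.5% of all genes tested. No member was higher in all DTR libraries, against 6.32% of all genes tested. With 8 members tested, nothing particular to them is read from these counts. What follows gives their levels, their spread and the sizes of difference that the intervals still allow.

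**Figure D1:**
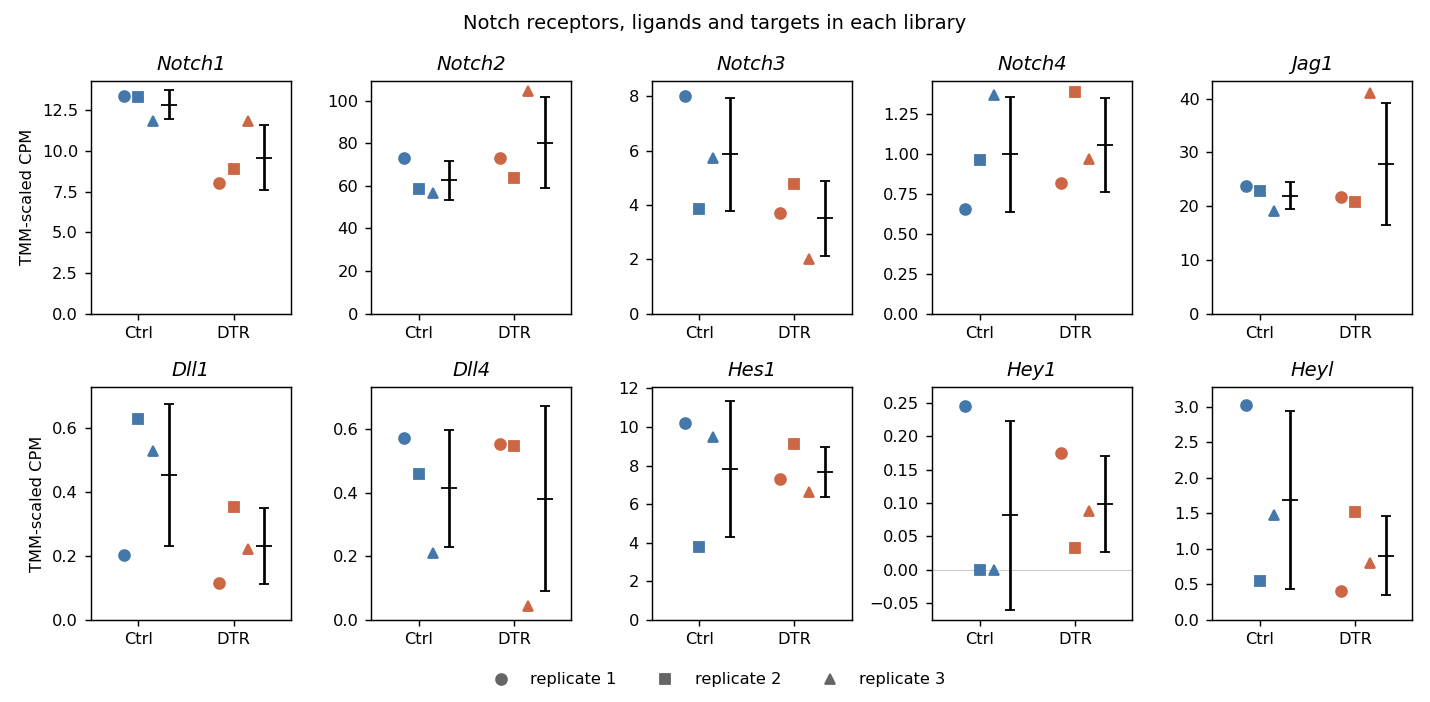
TMM-scaled CPM of each member in the 3 Ctrl and 3 DTR libraries, with replicates 1 to 3 as circle, square and triangle, the mean ± SD (n = 3) as a black bar beside them and an axis for each panel. Notch1 alone has all DTR points below all Ctrl points, with Ctrl replicate 3 (11.85 CPM) and DTR replicate 3 (11.82 CPM) nearly level, and DTR replicate 3 is the highest point for Notch2 and Jag1 and the lowest for Notch3 and Dll4.

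Notch2, whose receptor is widely expressed in mesenchymal cells, lies on chromosome 3 of GRCm38 from 98013527 to 98150361 and was the dominant receptor transcript in every library. It was counted at 73.1, 58.4 and 56.5 CPM in Ctrl replicates 1 to 3 and at 73.0, 63.6 and 104 CPM in DTR replicates 1 to 3. The groups overlapped, and DTR replicate 3 stood above all other libraries. The means were 62.6 ± 9.07 CPM (SD, n = 3) in Ctrl and 80.3 ± 21.4 CPM (SD, n = 3) in DTR, a log2 fold change of 0.36 (SE 0.192, 95% interval -0.08 to 0.80, edgeR adjusted p = 0.655). Notch2 had a log2 fold change of 0.12 once DTR replicate 3 was left out, but 0.48 without Ctrl replicate 1 and 0.50 without DTR replicate 2. The gene spans 136835 bases, against a median of 22641 for all tested genes, and an offset for genomic span gave Notch2 a log2 fold change of 0.20. Of the 50-base words in its annotated transcripts, 3.76% also occur in Gm42820, a predicted gene that overlaps it on the same strand.

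Notch1, a receptor that acts in many lineages and in T cells, lies on chromosome 2 from 26457903 to 26516663. It was counted at 13.4, 13.3 and 11.8 CPM in Ctrl replicates 1 to 3 and at 8.03, 8.92 and 11.8 CPM in DTR replicates 1 to 3. All DTR libraries were below all Ctrl libraries, as for 8.18% of tested genes, although Ctrl replicate 3 (11.85) and DTR replicate 3 (11.82) were nearly equal (p = 0.1 in a two-sided exact permutation test, the lowest value possible with 3 against 3). The means were 12.9 ± 0.873 CPM (SD, n = 3) in Ctrl and 9.59 ± 1.98 CPM (SD, n = 3) in DTR. The log2 fold change of Notch1 was -0.42 (SE 0.185, 95% interval -0.85 to 0.0018, edgeR adjusted p = 0.629), and with single libraries left out it lay between -0.60 (without DTR replicate 3) and -0.30 (without DTR replicate 1). With DESeq2's size factors the order of the closest libraries turned, with 319 scaled reads in Ctrl replicate 3 and 323 in DTR replicate 3, so the groups then overlapped. Beside Notch1, 7 T and NK cell markers summed to 6.33, 46.6 and 22.4 CPM in Ctrl replicates 1 to 3 and to 14.4, 16.2 and 21.8 CPM in DTR replicates 1 to 3, with 6 of 7 below 0, a median log2 fold change of -0.57 and 0 at an edgeR unadjusted p under 0.05. Ctrl replicate 2 was the highest library of this sum and Ctrl replicate 1 the lowest, while Notch1 was nearly equal in both. Without Ctrl replicate 2, Cd3g, Cd8a, Nkg7 and Gzmb turned above 0. The part of T cells in the values of Notch1 was not tested.

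Notch3, the receptor typical of pericytes and smooth muscle, lies on chromosome 17 from 32120820 to 32166852. It was counted at 8.0, 3.85 and 5.73 CPM in Ctrl replicates 1 to 3 and at 3.72, 4.77 and 2.03 CPM in DTR replicates 1 to 3. Ctrl replicate 1 was the highest and DTR replicate 3 the lowest library, and the groups overlapped through Ctrl replicate 2 (two-sided exact permutation test, p = 0.2). The means were 5.86 ± 2.08 CPM (SD, n = 3) in Ctrl and 3.51 ± 1.38 CPM (SD, n = 3) in DTR, a log2 fold change of -0.73 (SE 0.389, 95% interval -1.63 to 0.16, edgeR adjusted p = 0.652). The log2 fold change of Notch3 was -0.45 without Ctrl replicate 1 and -0.47 without DTR replicate 3, but -0.96 without Ctrl replicate 2 and -1.02 without DTR replicate 2. Notch4, the receptor typical of endothelial cells, lies on chromosome 17 from 34564268 to 34588503. It had 16, 23 and 39 reads in Ctrl replicates 1 to 3 and 28, 43 and 22 in DTR replicates 1 to 3, so the groups overlapped, with means of 0.996 ± 0.360 CPM and 1.06 ± 0.295 CPM (SD, n = 3 each). The log2 fold change of Notch4 was 0.08 (SE 0.472, 95% interval -1.01 to 1.17, edgeR adjusted p = 0.969), an interval that reached from 0.498-fold to 2.25-fold.

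The make-up of the receptor transcripts was compared within each library, where the scaling of the library cancels. Notch2 made up 77.1, 78.0 and 75.4% of the summed receptor RPKM in Ctrl replicates 1 to 3 and 85.7, 80.9 and 89.0% in DTR replicates 1 to 3. Notch1 made up 10.7, 13.5 and 12.0% in Ctrl and 7.15, 8.61 and 7.63% in DTR. The shares of these receptors did not overlap between groups, with means of 76.8 ± 1.31% (Ctrl) and 85.2 ± 4.03% (DTR) for Notch2 and of 12.1 ± 1.38% and 7.79 ± 0.743% for Notch1 (SD, n = 3 each). Both shares are parts of the same sum, so they are not separate results, and in CPM Notch2 overlapped between groups. In CPM, Notch2 exceeded Notch1 between 4.38 and 5.45 times in Ctrl and between 7.13 and 9.09 times in DTR. The ratio of a gene to Notch2 was lower in all DTR libraries than in all Ctrl libraries for Notch1 and for 13.2% of 15132 genes tested, Notch1 among them, was higher in 1.1% and separated in 14.3% in all, so separations of this kind were frequent among genes. Notch3 made up 6.86 to 11.3% in Ctrl and 2.30 to 8.09% in DTR, and Notch4 0.922 to 2.45% and 1.11 to 2.36%, and both overlapped.

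**Figure D2:**
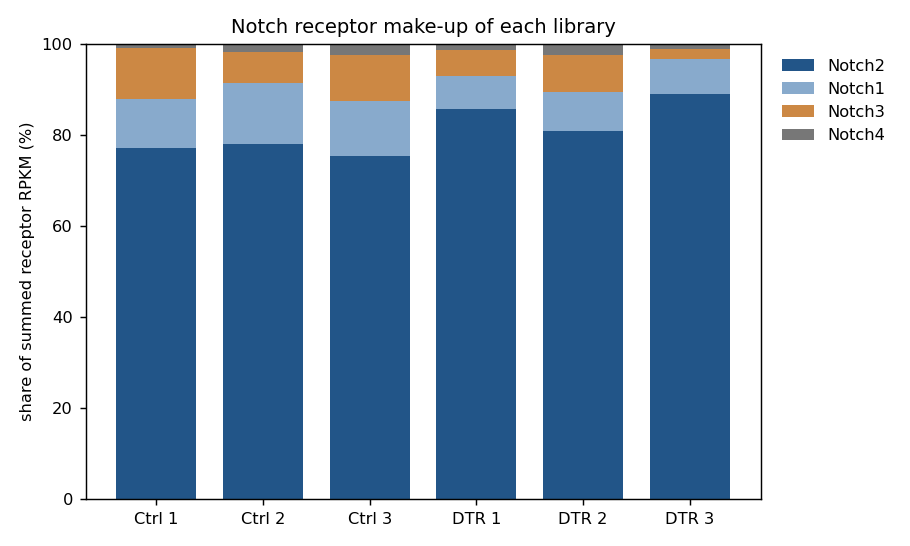
Share of each receptor in the summed RPKM of the 4 Notch receptors (percent, stacked bars from 0 to 100) in each library. Notch2 takes 75.4 to 78.0% in the Ctrl libraries and 80.9 to 89.0% in the DTR libraries, while Notch1 takes 10.7 to 13.5% and 7.15 to 8.61%.

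Among the 3 ligands, Jag1 took 93.6 to 99.1% of their summed RPKM per library. Jag1 encodes Jagged 1, the ligand through which endothelial cells act on mural cells, and lies on chromosome 2 from 137081456 to 137116644. It was counted at 23.8, 22.9 and 19.1 CPM in Ctrl replicates 1 to 3 and at 21.8, 20.8 and 41.0 CPM in DTR replicates 1 to 3. DTR replicate 3 had 41.0 CPM, and the other 5 libraries lay between 19.1 and 23.8 CPM. The means were 21.9 ± 2.51 CPM (SD, n = 3) in Ctrl and 27.8 ± 11.4 CPM (SD, n = 3) in DTR, with a log2 fold change of 0.34 (SE 0.261, 95% interval -0.26 to 0.95, edgeR adjusted p = 0.740). Jag1 turned to a log2 fold change of -0.04 (SE 0.148) once DTR replicate 3 was left out, so the higher DTR mean rested on that library. Dll4, the Delta ligand of endothelial tip cells, lies on chromosome 2 from 119325784 to 119335962 and had 14, 11 and 6 reads in Ctrl replicates 1 to 3 and 19, 17 and 1 in DTR replicates 1 to 3. The single read in DTR replicate 3 is under the floor of 3 reads, and the groups overlapped. The log2 fold change of Dll4 was -0.07 (SE 0.827, 95% interval -1.98 to 1.84, edgeR adjusted p = 0.984), and it was 0.41 without DTR replicate 3. Dll1, a further Delta ligand on chromosome 17 from 15367354 to 15376872, had 5, 15 and 15 reads in Ctrl and 4, 11 and 5 in DTR. It was thus detected in every library but failed edgeR's expression filter and was not in the main fit. Its groups overlapped at 0.453 ± 0.221 CPM (SD, n = 3) in Ctrl and 0.230 ± 0.119 CPM (SD, n = 3) in DTR (two-sided exact permutation test, p = 0.3).

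Of the 3 targets among the members, Hes1 made up 88.3 to 96.4% of their summed RPKM per library. Hes1 encodes a bHLH repressor that Notch and other signals induce, and lies on chromosome 16 from 30064384 to 30067796. It was counted at 10.2, 3.77 and 9.49 CPM in Ctrl replicates 1 to 3 and at 7.30, 9.11 and 6.62 CPM in DTR replicates 1 to 3. The DTR libraries lay within the range of the Ctrl libraries, where replicate 2 was low. The means were 7.82 ± 3.53 CPM (SD, n = 3) and 7.68 ± 1.29 CPM (SD, n = 3), with a log2 fold change of -0.03 (SE 0.358, 95% interval -0.85 to 0.80, edgeR adjusted p = 0.986). The sign of this value turned in 4 of the 6 fits with a library left out, which ran from -0.36 to 0.21. Heyl, a Hey-family repressor and NOTCH3 target in smooth muscle, lies on chromosome 4 from 123233556 to 123249875. It had 74, 13 and 42 reads in Ctrl replicates 1 to 3 and 14, 47 and 18 in DTR replicates 1 to 3, or 3.02, 0.544 and 1.48 CPM against 0.407, 1.51 and 0.794 CPM. Heyl varied 7.42 times between its highest library, Ctrl replicate 1, and its lowest, DTR replicate 1. Values of Ctrl and DTR overlapped (p = 0.5, two-sided exact permutation test). Its log2 fold change was -0.89 (SE 0.714, 95% interval -2.54 to 0.76, edgeR adjusted p = 0.752), and it was -0.17 without Ctrl replicate 1 but -1.31 without Ctrl replicate 2 and -1.50 without DTR replicate 2. Hey1, a Hey-family repressor on chromosome 3 from 8663359 to 8667256, had 6, 0 and 0 reads in Ctrl and 6, 1 and 2 in DTR. In Ctrl replicates 2 and 3 the absence of reads allows up to 0.126 and 0.105 CPM, and Hey1 was above 3 reads in only 2 of the 6 libraries. It failed edgeR's expression filter, and only a large difference could have been seen at this depth.

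**Figure D3:**
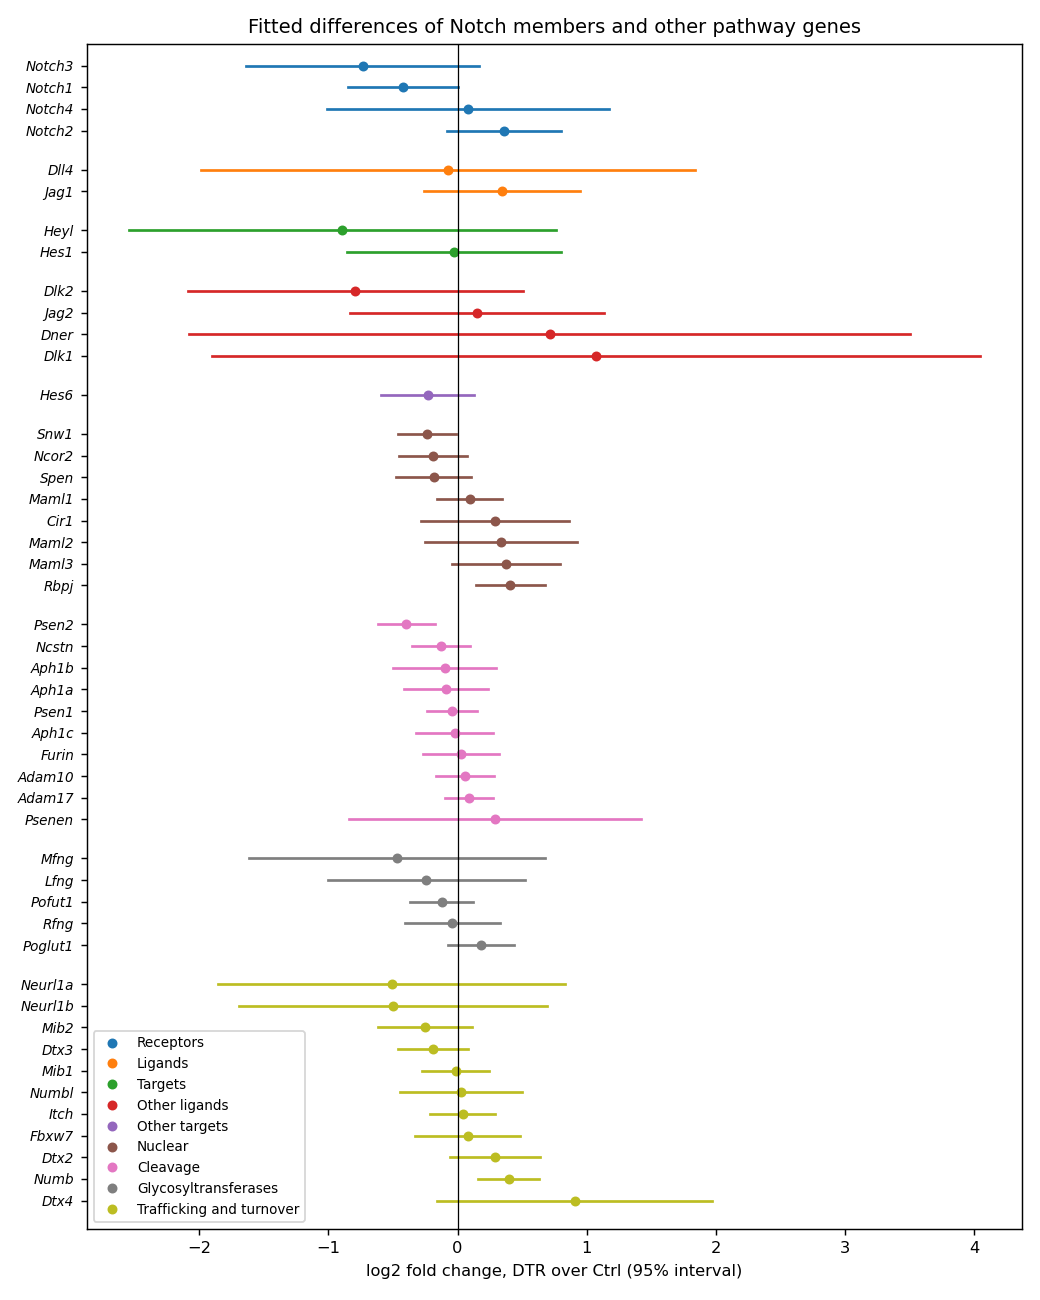
Log2 fold change, DTR over Ctrl, with its 95% interval from edgeR's quasi-likelihood fit (3 libraries per group) for the 8 members and the 39 other pathway genes tested, colored by role and sorted within each role. All 8 members' intervals reach across 0, and the intervals are widest for genes with few reads such as Dll4, Heyl and Dlk1.

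Notch2, Notch3 and Heyl were then set beside marker genes of cell types that express them. The summed level of 10 fibroblast markers was 13716, 5275 and 5207 CPM in Ctrl replicates 1 to 3 and 10967, 5618 and 14388 CPM in DTR replicates 1 to 3. All 10 of these markers had a log2 fold change above 0, with a median of 0.43, and 0 had an edgeR adjusted or unadjusted p under 0.05. The shared sign rested on single libraries, as Thy1 was at -0.18 and Pdgfra at -0.03 without DTR replicate 3, and Col1a1 was at -0.19 without Ctrl replicate 3. Dpt, the highest of the list at 1.29, was at 0.44 without DTR replicate 3. The 6 libraries had the same order for this sum as for Notch2, with DTR replicate 3 first and Ctrl replicate 3 last. With the fibroblast sum as a covariate, an alternative chosen after seeing the data, the log2 fold change of Notch2 was 0.20 (SE 0.129) in place of 0.36, and that of Jag1 was 0.16 (SE 0.237) in place of 0.34. Notch1 kept a log2 fold change of -0.49 (SE 0.197, edgeR adjusted p = 0.610) in that fit. The part of fibroblasts in the values of Notch2 and Jag1 was not tested.

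The summed level of 10 mural markers was 165, 73.9 and 127 CPM in Ctrl replicates 1 to 3 and 78.2, 97.1 and 98.4 CPM in DTR replicates 1 to 3. Ctrl replicate 1 was the highest library for the mural sum, for Notch3 and for Heyl. It was the highest for 5 of the 8 members tested, against 16.0% of all genes tested, so this was not particular to Notch3 and Heyl. Ctrl replicate 2 and DTR replicate 1 were the lowest for the mural sum and for Heyl. Notch3 was lowest in DTR replicate 3, at 2.03 CPM, where the mural sum was 98.4 CPM and above both other DTR libraries. Of the 10 mural markers 8 were tested, with a median log2 fold change of -0.54 over the 8 and 7 of them below 0, and Cspg4, which encodes NG2, was at -1.02 (SE 0.334, edgeR adjusted p = 0.602). Much of this rested on Ctrl replicate 1, without which Pdgfrb turned to 0.22 and Des to 0.25, Abcc9 went from -0.91 to -0.18, Tagln from -0.70 to -0.27 and Cspg4 to -0.72. With the mural sum as a covariate, also chosen after seeing the data, the log2 fold change of Heyl was 0.15 (SE 0.540) in place of -0.89, and that of Notch3 was -0.40 (SE 0.408) in place of -0.73. The mural sum was led in every library by Pdgfrb (18.4 to 68.6 CPM) and Mcam (27.9 to 49.7 CPM), which other stromal cells can also express. Rgs5 and Kcnj8, which mark pericytes, had 0 to 26 and 0 to 16 reads and failed edgeR's expression filter. The part of mural cells in the values of Heyl and Notch3 was not tested.

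For the endothelial-type members Notch4 and Dll4, 10 endothelial markers summed to 16.8 to 31.0 CPM in Ctrl and to 16.2 to 83.7 CPM in DTR, with 6 of the 10 at 0 reads in at least 1 library. Emcn had at most 1 read and Cldn5 at most 2 in any library, and Cdh5, which encodes VE-cadherin, had 12 to 39 reads in Ctrl and 0 to 19 in DTR. The endothelial markers did not move in one direction. Flt1, a VEGF receptor gene, was lower in every DTR library, with 123 to 365 reads in Ctrl and 79 to 105 in DTR and a log2 fold change of -1.65 (SE 0.410, edgeR adjusted p = 0.602, DESeq2 adjusted p = 0.0243). Pecam1, which encodes CD31, had 64, 91 and 143 reads in Ctrl and 276, 168 and 91 in DTR, with a log2 fold change of 0.61 (SE 0.350, edgeR adjusted p = 0.665) that was 0.31 without DTR replicate 1. In DTR replicate 3, Cdh5 had 0 reads and Dll4 had 1, while 1426 of its reads lay on Tek, an angiopoietin receptor gene that led the endothelial sum there. The part of other cell types in the values of Notch4 and Dll4 was not tested.

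**Figure D4:**
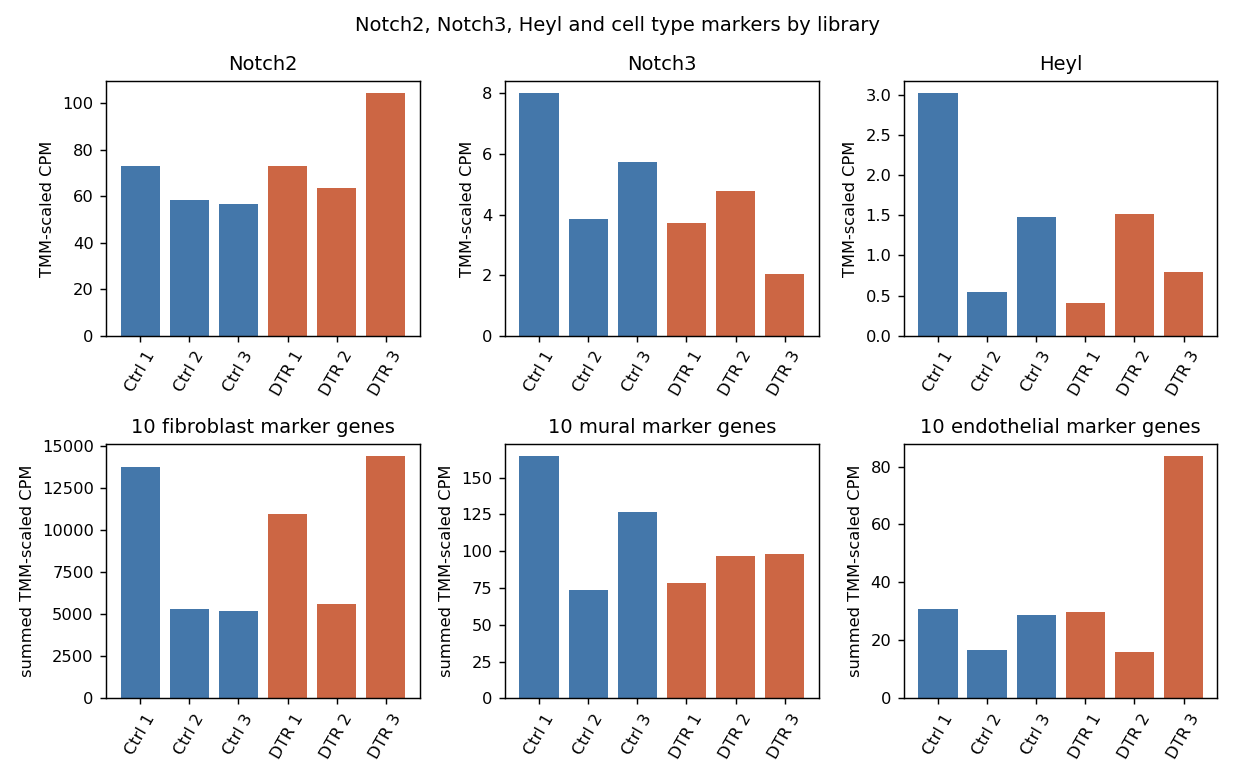
TMM-scaled CPM of Notch2, Notch3 and Heyl (top row) and summed CPM of 10 fibroblast, 10 mural and 10 endothelial marker genes (bottom row) in each library, with Ctrl in blue and DTR in orange and bars starting at 0. Notch2 and the fibroblast sum order the libraries alike, Ctrl replicate 1 is the highest bar for Notch3, Heyl and the mural sum, and DTR replicate 3 is the highest bar of the endothelial sum at 83.7 CPM.

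Beyond the members, 46 genes of the pathway were listed, namely other ligands, other targets and genes that cleave, modify, transport or relay Notch, of which 39 were tested. edgeR left 0 of them with a Benjamini-Hochberg adjusted p under 0.05. Without adjustment 4 passed 0.05, 2 of them lower and 2 higher in DTR, against 4.11% lower and 3.81% higher among all genes tested. DESeq2's Wald test gave 0 of 45 with adjustment and 4 without, against 4.89% of all genes. DESeq2's genes were Rbpj, Psen2, Numb and Dtx4 (unadjusted p = 0.0321), whereas Snw1 did not pass there (unadjusted p = 0.0728). The median log2 fold change of the 39 genes was -0.01, with 20 below and 19 above 0. The groups did not overlap for 5 of them, 1 lower and 4 higher in DTR, against 14.5% of all genes tested. With 39 genes tested, nothing particular to them is read from these counts.

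Rbpj, which encodes the DNA-binding partner of the Notch intracellular domain, was counted at 29.2, 32.1 and 27.6 CPM in Ctrl replicates 1 to 3 and at 37.7, 36.6 and 43.7 CPM in DTR replicates 1 to 3. Every DTR library was above every Ctrl library, as for 6.32% of all genes tested. The log2 fold change of Rbpj was 0.41 (SE 0.115, edgeR unadjusted p = 0.00753, adjusted p = 0.602), and with an offset for genomic span it was 0.22 (unadjusted p = 0.0781). Numb, which encodes an adaptor that restrains Notch by directing the receptor to endocytosis, was counted at 41.0, 39.2 and 40.4 CPM in Ctrl and at 47.7, 57.3 and 53.6 CPM in DTR. Its groups did not overlap either, with a log2 fold change of 0.39 (SE 0.102, edgeR unadjusted p = 0.00489, adjusted p = 0.602), and the offset gave 0.24 (unadjusted p = 0.0380). Psen2, which encodes presenilin 2, a catalytic subunit of γ-secretase, was counted at 124, 152 and 132 CPM in Ctrl and at 106, 103 and 101 CPM in DTR. All DTR libraries were below all Ctrl libraries for Psen2, as for 8.18% of all genes tested. Its log2 fold change was -0.40 (SE 0.0967, edgeR unadjusted p = 0.00351, adjusted p = 0.602) and stayed between -0.46 and -0.31 with each library left out. Snw1, which encodes a nuclear cofactor that binds RBPJ and also acts in splicing, had 136, 118 and 132 CPM in Ctrl and 120, 104 and 104 CPM in DTR, so its groups overlapped, with a log2 fold change of -0.23 (SE 0.0973, edgeR unadjusted p = 0.0426, adjusted p = 0.608).

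The other genes are given by group, with the lowest and the highest value of each. Of the 10 cleavage genes tested, 6 were below and 4 above 0, from -0.40 for Psen2 to 0.29 for Psenen (SE 0.489), another γ-secretase subunit. Psenen was at -0.07 without Ctrl replicate 1 and at 0.89 without Ctrl replicate 2, so its direction was not stable. Adam10 and Adam17, which encode the proteases that cut ligand-bound receptors, had log2 fold changes of 0.06 (SE 0.0986) and 0.09 (SE 0.0801), and Adam10 was at -0.01 without DTR replicate 2. Genes of nuclear partners ran from -0.23 for Snw1 to 0.41 for Rbpj, with 3 of 8 below 0. Among the 5 glycosyltransferase genes, whose products add sugars to the receptors, values ran from -0.47 for Mfng (SE 0.495) to 0.18 for Poglut1 (SE 0.110), and Mfng was at -0.02 without Ctrl replicate 2. Genes of receptor and ligand trafficking and turnover ran from -0.51 for Neurl1a (SE 0.582) to 0.91 for Dtx4 (SE 0.461), with 5 of 11 below 0. Neurl1a turned to 0.22 without Ctrl replicate 3, and Dtx4 was at 0.42 without DTR replicate 3. Of the other ligand genes, 4 of 5 were tested, from -0.79 for Dlk2 (SE 0.562) to 1.07 for Dlk1 (SE 1.29), and Dlk1 had 0 reads in Ctrl replicate 3 and in DTR replicate 3. Of the 6 further genes listed with the targets, Hes6 was the only gene tested, with a log2 fold change of -0.23 (SE 0.156) and a mean of 7.60 RPKM. Its level is not taken as a measure of Notch activity. Hes5 had 0 reads in all 6 libraries, which at 3 reads allows up to 0.0873 to 0.132 CPM, and Nrarp had at most 5 reads in any library.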

How the data were processed

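RNA of 6 libraries of PDPN+PDGFRα+ cells sorted from MO5 tumors, 3 Ctrl and 3 DTR, had been prepared with a stranded total RNA kit. The authors trimmed reads with cutadapt 3.4, aligned them to GRCm38 with STAR 2.7.3a and counted them per gene with featureCounts 2.0.1 using strand information, and deposited raw counts. They also deposited a normalized count per library (a score, the count divided by a DESeq2 size factor and rounded) and columns of their own DESeq2 comparison (fold changes, p-values, dispersions), none of which was used. Groups and replicate numbers came from the sample titles. The labels do not say whether libraries came from separate animals. The paper counts n as mice unless it states otherwise, but prints no n for this comparison, so p-values measure the spread between these libraries.

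Of 53801 genes, 27987 had no name in the table, and 27841 of these were named from the annotation. Coordinates, spans and exon lengths came from GENCODE M21 on GRCm38. Genes were kept by edgeR's filterByExpr (minimum count 10, minimum total 15), which left 15133, and the groups were compared (DTR over Ctrl) by edgeR's two-sided quasi-likelihood test without covariates, with TMM factors and Benjamini-Hochberg adjustment over all genes tested at a threshold of 0.05. The standard error is the absolute log2 fold change divided by √F, and 95% intervals use the moderated degrees of freedom. Exact permutation tests used log2(CPM + 0.1) and cannot go below p = 0.1. All 10 members are named. Of the other pathway genes, the lowest and highest of each group and those at an unadjusted p under 0.05 are named, and further genes were chosen after their values were seen. The members, lists and tests were chosen with earlier results of these data known.

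Alternatives were other size factors, library size alone, other count filters, DESeq2's Wald test, the replicate number as a block, a loess offset (span 0.5) on log2 genomic span, and each library left out. Covariates for fibroblast or mural marker sums were added after seeing the data. Fits were also run on simulated counts as a check of the code, and no result given here rests on them. Fits used edgeR 4.0.16 and DESeq2 1.42.0 under R 4.3.3, and other steps SciPy 1.17.1 and matplotlib 3.10.9 under Python 3.11.15. Upstream versions are those of the methods and the submitters' processing notes. The genes most like Hes1 in pattern are not reported here.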

Additional observations from a re-analysis of the deposited data

How the results depend on the processing

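Over all alternatives and left-out libraries, 0 members reached an adjusted p under 0.05, the lowest being 0.461 for Notch1 with the offset for genomic span. Genes called over all genes were 0 in every edgeR fit of all 6 libraries, 31 with DESeq2's Wald test and 0 to 2 with a library left out (2 without Ctrl replicate 1). Members at an unadjusted p under 0.05 were 1 when all genes with at least 1 count were tested (Notch2), 1 with the genomic span offset (Notch1), 1 with the fibroblast covariate (Notch1), 0 in the remaining fits of all 6 libraries, and 0 to 2 with a library left out (Notch3 without Ctrl replicate 2, Notch2 and Notch3 without DTR replicate 2, Notch1 without DTR replicate 3). The other pathway genes counted 3 to 6 in the alternatives, against 4. Their median log2 fold change was -0.083 with the offset and ran from -0.071 to 0.078 with a library left out. The members' median, -0.05, lay between -0.14 with the replicate block and 0.10 with the mural covariate, and between -0.27 and 0.03 with a library left out.

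Notch1, Notch2 and Notch3 kept their direction in all these fits. With a library left out, log2 fold changes ran from -0.16 to 0.39 for Notch4 (-0.15 without Ctrl replicate 1, -0.16 without DTR replicate 2), from -0.042 (without DTR replicate 3) to 0.51 for Jag1, from -0.359 to 0.21 for Hes1 and from -0.43 to 0.41 for Dll4 (0.22 without Ctrl replicate 1, 0.0013 without Ctrl replicate 2, 0.41 without DTR replicate 3). Hes1 turned to 0.21 without Ctrl replicate 1, 0.14 without Ctrl replicate 3, 0.021 without DTR replicate 1, 0.067 without DTR replicate 3, 0.063 with the replicate block and 0.52 with the mural covariate, which also turned Heyl to 0.15. The causes were not tested. Same-numbered libraries share only a number: their deviations correlated at 0.118, 0.134 and -0.045, and the replicate block left 0 genes called and 5 other pathway genes at an unadjusted p under 0.05. Dll1 and Hey1, which failed the filter, stood at -0.96 (SE 0.912) and 0.29 (SE 1.71) when all genes with a count were tested, so their depth leaves wide intervals.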

Other observations

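Genes whose pattern over the 6 libraries was most like that of the leading receptor and the leading ligand were looked up among 13094 tested protein-coding genes, by the root mean square difference of log2 CPM centred on each gene's mean. For Notch2 the nearest was B4galt1, a galactosyltransferase gene, which differed by 0.0258 and was counted at 56.4, 43.1 and 41.7 CPM in Ctrl replicates 1 to 3 and at 53.5, 47.7 and 76.9 CPM in DTR replicates 1 to 3. Glul, the glutamine synthetase gene, and Lama4, a laminin chain gene, followed at 0.0627 and 0.0634. For Jag1 the nearest were Nfkb1, an NF-κB subunit gene, at 0.0867, S100a13 at 0.105 and Zfp697 at 0.109. Nfkb1 had 72.0, 71.4 and 66.6 CPM in Ctrl and 70.1, 70.1 and 120 CPM in DTR, so DTR replicate 3 stood apart for it as for Jag1. These are descriptions over 6 libraries, in which the genes compared share the depth and the cell make-up of each library.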
